A study of Mus musculus with 2 samples.

Results

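The 9 genes described here belong to the signalling that runs from leukaemia inhibitory factor (LIF) and related cytokines to the transcription factor STAT3. Lifr and Il6st encode the chains of the LIF receptor, and Osmr encodes a receptor chain for oncostatin M. The others are the factor gene Stat3, its feedback inhibitor gene Socs3, and the STAT3-responsive genes Pim1, Pim3, Bcl3 and Junb. All 9 genes were chosen by name. Every gene probe listed under 1 of these names in the deposited scanner files was used. That gave 16 probes for 9 of the 19504 genes named on the array. Of the 16 probes, 12 were well above background on both arrays, 1 on day 0 only and 3 on neither, and all 9 genes had at least 1 probe well above background.

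Total RNA of R1, an embryonic stem (ES) cell line of the mouse, was hybridised to 1-colour expression arrays, 2 in all. The first array held undifferentiated ES cells (day 0), kept on growth-arrested fibroblast feeders with 15% fetal bovine serum and LIF at 1000 U/ml. The second held embryoid body cells after 6 days of direct neural differentiation (day 6), which the labels call neural precursors. The ES cells were of 1 line, each group had 1 array, and the LIF, serum and feeder state of the day 6 culture is not stated in the labels. Medium, feeders, aggregation and differentiation therefore cannot be told apart, and no difference below has a replicate check.

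LIF binds the receptor chain LIFR, which pairs with gp130, the product of Il6st and the shared chain of the interleukin 6 cytokine family. Janus kinases bound to these chains phosphorylate STAT3, which enters the nucleus and activates target genes. In mouse ES cells this route sustains self-renewal, and SOCS3, made in response to STAT3, binds gp130 and the kinases and shuts the signal down.

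The promoters of the 9 genes were examined because these genes were lower together on day 6. RefSeq (GRCm38.p6) gives 11 promoter windows for them, each from 250 bases before to 50 bases after a start site. The letters TTCNNNGAA, the palindromic core to which STAT factors bind, were found in 1 of the 11 windows, that of Socs3, and in 8.3% of all 32851 windows. The match starts at position -154 relative to the Socs3 start site. The 250 bases before that start site lie at chr11:117969367-117969616 on the minus strand and are printed with the match in capitals.
Socs3: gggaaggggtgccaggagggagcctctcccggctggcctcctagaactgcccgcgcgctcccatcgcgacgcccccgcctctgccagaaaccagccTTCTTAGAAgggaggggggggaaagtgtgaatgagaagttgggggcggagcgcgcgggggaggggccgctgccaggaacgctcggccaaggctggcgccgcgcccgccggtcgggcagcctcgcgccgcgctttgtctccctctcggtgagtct

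The looser pattern TTNNNNNAA, which includes the core and reads the same on both strands, had 7 matches in 6 of the 11 windows (54.5%), those of 6 genes, and was present in 59% of all windows. The matches outside Socs3 are printed below in capitals, with up to 15 flanking bases on each side, to show how they differ from the core. Positions are those of the first capital relative to the start site: -239 and -207 for Stat3, -120 for Il6st, -35 for Osmr, -188 for the downstream of the 2 Lifr start sites and -242 for the upstream of the 2 Pim1 start sites.
Stat3 upstream match: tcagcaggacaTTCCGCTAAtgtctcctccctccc
Stat3 downstream match: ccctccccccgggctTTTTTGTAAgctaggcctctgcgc
Il6st: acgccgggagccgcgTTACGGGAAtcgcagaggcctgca
Osmr: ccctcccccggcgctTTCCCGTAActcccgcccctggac
Lifr: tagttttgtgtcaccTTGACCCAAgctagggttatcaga
Pim1: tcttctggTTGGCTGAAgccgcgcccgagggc

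No window of Bcl3, Junb or Pim3 held either pattern, which says only that these letters are not in those 300 bases. The member windows were rich in G and C, with a median of 68.3% (49% to 81.3%) against 52.7% over all windows. Their median number of CG pairs was 26, against 7 over all windows. The 2 windows with the fewest CG pairs, 4 and 5, were those of the downstream start sites of Lifr and Pim1.

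On day 6 all 9 genes were lower than on day 0, and 9 of 9 were at least 2-fold lower by the brightest probe of each gene. Over all 14966 measured genes, 19.8% passed this limit downwards and 18.0% passed 2-fold upwards. The median log2 difference (day 6 minus day 0) was -2.20 over the 9 genes, which is 4.61-fold lower, and -0.09 over all genes. At 4-fold, 5 of the 9 were lower, against 8.31% of all genes. With no scaling between arrays Pim3, 1 of these 5, stood at -1.99, just under 4-fold. By probe, 11 of the 13 probes well above background were at least 2-fold lower, 2 were lower by less than 2-fold and 0 were higher, against 17.9% lower and 17.8% higher over all 28378 such probes. The members were known to be lower from earlier results on the same arrays, so these counts describe the list and do not test it.

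**Figure D1:**
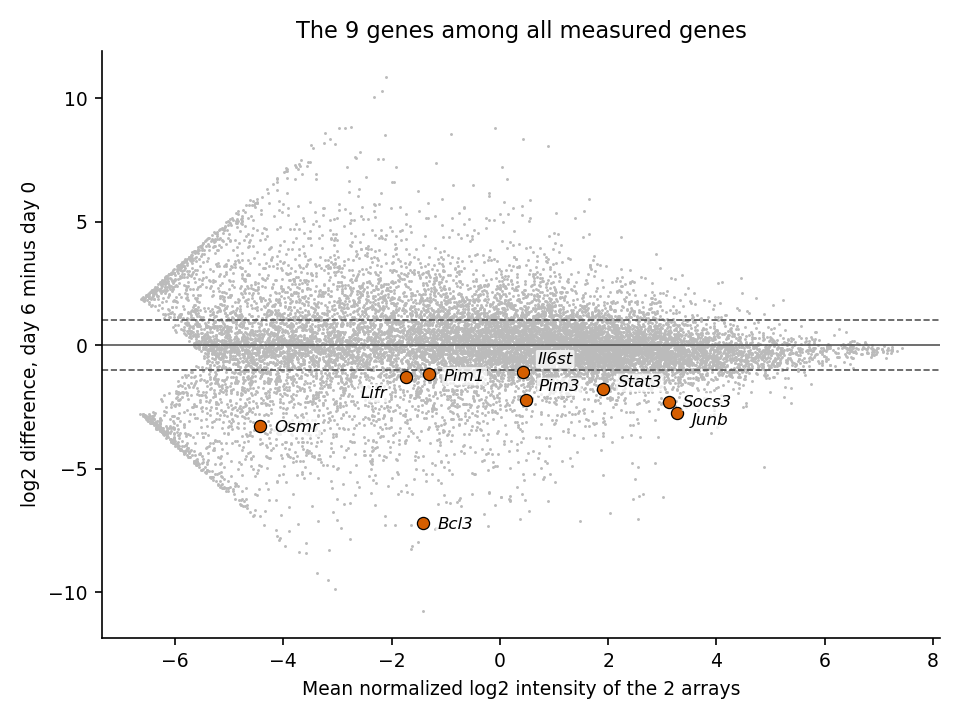
Each grey point is 1 of the 14966 measured genes, with the mean normalized log2 intensity of the 2 arrays on the x axis and the log2 difference (day 6 minus day 0) on the y axis. Orange points are the 9 genes by their brightest probe, dashed lines mark 2-fold, and all 9 lie below the lower line, from Il6st at -1.09 to Bcl3 at -7.19.

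Intensities were log2-transformed, and the 75th percentile of each array was subtracted. That percentile was 3858 units on day 0 and 4474 on day 6, so the folds below are of scaled values and differ from the plain ratio of 2 intensities. Each difference is given with the SD of the scanner software's error model, which had a median of 0.21 log2 units over all probes and does not hold the variation between cultures. Signals well above background started at 102 units on the day 0 array and at 85.2 on the day 6 array. No member probe was saturated. Among genes at least 2-fold apart, 47.6% were higher on day 6, and with no scaling between arrays 57.8% were.

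**Figure D2:**
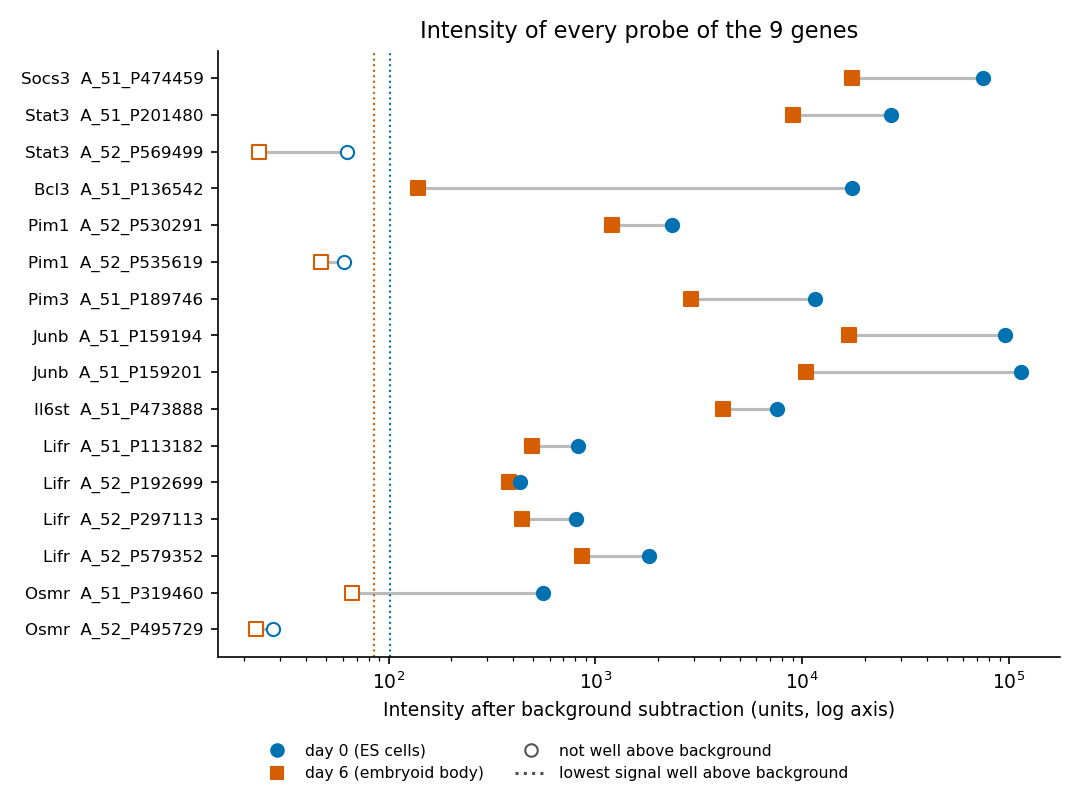
Background-subtracted intensity (log axis) of the 16 probes of the 9 genes on day 0 (blue circles) and day 6 (orange squares). Open symbols are not well above background, dotted lines mark the lowest signal well above background on each array (102 and 85.2), and each probe is lower on day 6.

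The receptor chains differed from each other in size. Il6st encodes gp130, the chain that all cytokines of this family share. Its probe (NM_010560, chr13:109662276-109662335 in mm7, plus strand) read 7554 on day 0 and 4125 on day 6. The log2 difference was -1.09 ± 0.20 (software SD), or 2.12-fold lower, close to the 2-fold limit. With no scaling between arrays it stood at -0.87, under 2-fold.

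Lifr, the chain that gives the receptor its specificity for LIF, was measured by 4 probes for NM_013584. From 5′ to 3′ along the plus strand of chromosome 15, the first probe spans 807 bases of mm7 (chr15:7011508-7012314) although it is 60 bases long, as for a probe across a splice junction. It was the brightest and read 1815 and 862 (day 0 and day 6), a log2 difference of -1.29 ± 0.21 (2.44-fold lower). The next, at chr15:7012421-7012480, read 431 and 382, a log2 difference of -0.39 ± 0.23. The 2 most 3′ probes, at chr15:7017869-7017928 and chr15:7017960-7018019, gave -1.08 ± 0.22 (802 and 439) and -0.95 ± 0.21 (825 and 494). All 4 probes were lower on day 6, 2 of them at least 2-fold, with a median of -1.02. The weakest and strongest differed by 0.90 log2 units, which exceeds the software SD of that gap (0.31), so the probes of this gene do not give 1 size of change. A further probe that the file lists as A230075M04Rik, an older name that RefSeq gives to Lifr, lies outside the rule and read 1134 and 546, a log2 difference of -1.27 ± 0.21. With the mean of all 5 probes in place of the brightest, Lifr stood at -0.996, just under 2-fold.

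Osmr encodes the chain that pairs with gp130 to bind oncostatin M. Its probe at chr15:6640433-6640492 (NM_011019, minus strand) read 557 on day 0 and 66.4 on day 6, where it was not well above background. With the scanner's background subtraction it was at least 7.58-fold lower on day 6. This bound sets the day 0 value against the lowest signal well above background on day 6, and the measured log2 difference was -3.28 ± 0.46. The size depends on the background step: the measured difference was -2.16 with normexp correction and -2.06 with no background subtraction, both smaller than the bound (-2.92). The second Osmr probe further 5′ at chr15:6641790-6641849, was not well above background on either array (27.5 and 23.0). Only the more 3′ probe therefore carries the Osmr result.

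Stat3 itself, the factor that carries the signal to the nucleus, is the only member with a probe spotted 10 times on each array. The probe (NM_213659, chr11:100997323-100997382, minus strand) read from 24056 to 28366 on day 0 with a median of 27074, and from 8565 to 9378 on day 6 with a median of 8959. No day 6 spot reached the lowest day 0 spot. Between spots of the day 0 array the SD was 0.07 log2 units, and between those of the day 6 array 0.04, where the 127 probes with 10 spots had medians of 0.05 and 0.05. The log2 difference of the averaged spots was -1.79 ± 0.20 (software SD), or 3.46-fold lower. Spots share 1 RNA sample, so this spread is that of the array and not of the cells. A second Stat3 probe, for AK079406, lies 3′ of the main probe at chr11:100994187-100994246 and was not well above background on either array (63.1 and 23.7).

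**Figure D3:**
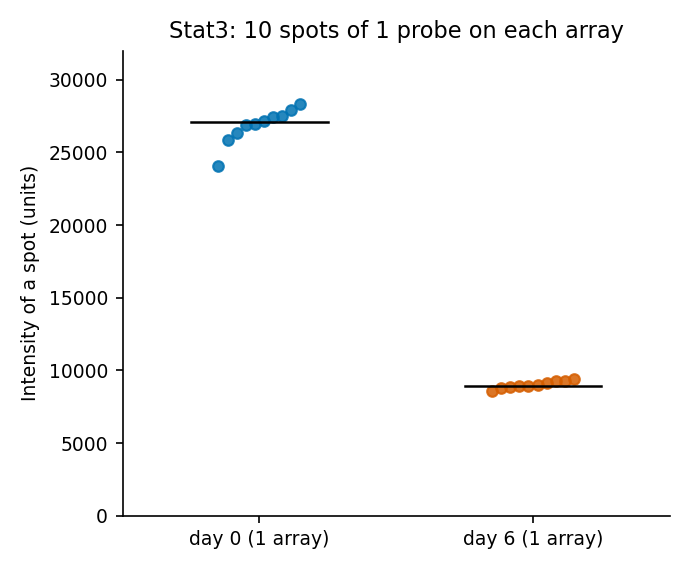
Intensity of each of the 10 spots of the main Stat3 probe on the day 0 array (blue) and the day 6 array (orange), drawn from lowest to highest, with the median as a black line. The day 0 spots lie between 24056 and 28366 and the day 6 spots between 8565 and 9378, with no overlap.

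Socs3 is the feedback inhibitor gene whose promoter window holds the core letters printed above. Its probe (NM_007707, chr11:118075211-118075270, minus strand) read 74595 and 17378, a log2 difference of -2.32 ± 0.20 (4.98-fold lower). Of all genes, 6.61% were as low or lower. Its day 6 level was still well above background, as was that of every member except Osmr.

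The PIM kinases are serine/threonine kinases that promote survival and growth, and cytokine signals raise their transcription. Pim3 (NM_145478, chr15:88947531-88947590, plus strand) read 11559 and 2909, a log2 difference of -2.20 ± 0.20 (4.61-fold lower). Pim1 (NM_008842, chr17:27685743-27685802, plus strand) read 2358 and 1201, a difference of -1.19 ± 0.21 (2.28-fold lower), and stood at -0.97 with no scaling. Pim3 was thus lower by more than Pim1. A second probe listed as Pim1, for AK047301 at chr17:27683630-27683689, is given in the file on the minus strand, opposite to the gene, and was not well above background on either array (60.7 and 47.1). It was the only member probe of the 16 not listed on its gene's strand. Pim2, the third kinase of the family and no member here, read 10005 and 1461, a difference of -2.99 ± 0.20.

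Bcl3 had the largest difference of the 9. It encodes a nuclear protein of the IκB family that acts as a co-regulator of NF-κB subunits. Its probe (NM_033601, chr7:17490887-17490946, minus strand) read 17319 in ES cells and 138 on day 6, a log2 difference of -7.19 ± 0.27. That is 146-fold lower, and 14 of the 14966 genes (0.0935%) were as low or lower. The day 6 value lay close to the lowest signal well above background (85.2), so the size depends on the background step: -6.49 with normexp correction and -6.34 with no background subtraction. Only 1 probe measured this gene.

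Junb, which encodes a subunit of the AP-1 transcription factor and is also an immediate early gene, was measured by 2 overlapping probes for NM_008416 on the minus strand of chromosome 8. The probe at chr8:83563059-83563118 read 96086 and 16810, a log2 difference of -2.73 ± 0.20 (6.63-fold lower). The probe at chr8:83563097-83563156 read 114838 and 10432, a difference of -3.67 ± 0.20 (12.8-fold lower). Both lie in the same transcript and share 22 bases (chr8:83563097-83563118), printed here from the deposited file because the probes nevertheless gave folds 1.93 times apart.
Junb shared stretch: ttcgtgtctaaagtctatttta

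The gap between these probes was 0.95 log2 units, above its software SD of 0.29. The probes of this gene thus do not give 1 size of difference, and with quantile scaling they stood at -2.47 and -3.46. No member probe had the same sequence as another probe on the array.

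**Figure D4:**
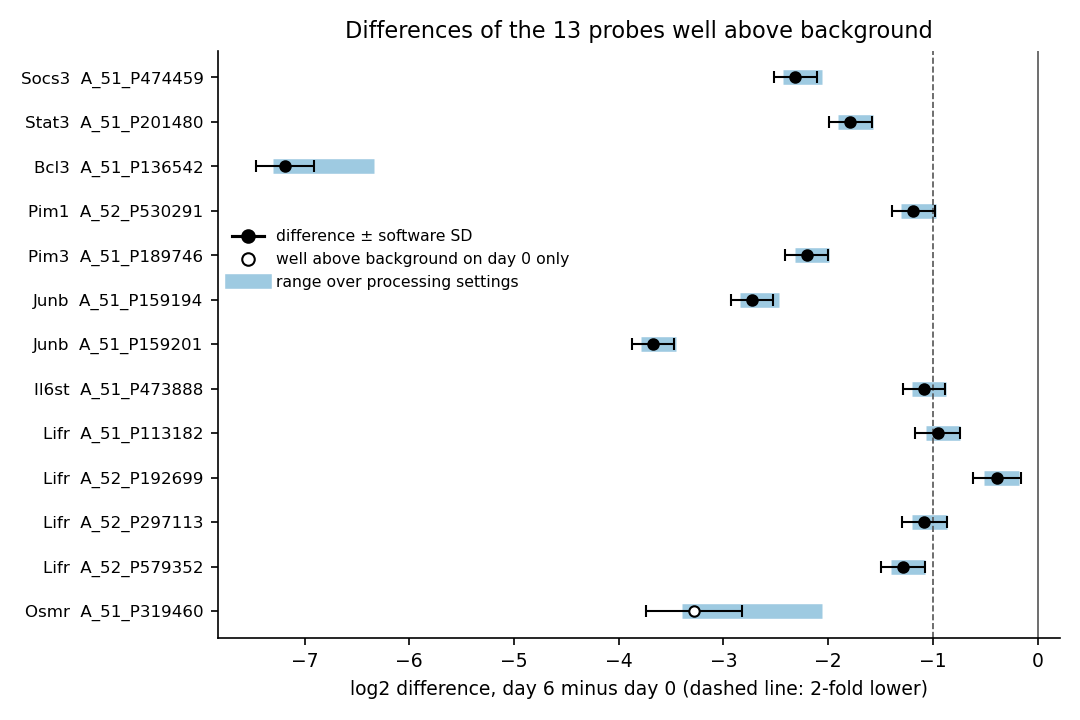
Log2 difference (day 6 minus day 0) of the 13 probes well above background on at least 1 array, with the software SD as error bars and the range over all processing settings as blue bars. All points lie below 0; Bcl3 is lowest at -7.19, and the Lifr probe at -0.39 is the closest to 0.

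Ordered by the brightest probe, the differences ran from Bcl3 (-7.19) through Osmr (-3.28, a bound of -2.92), Junb (-2.73), Socs3 (-2.32), Pim3 (-2.20), Stat3 (-1.79), Lifr (-1.29) and Pim1 (-1.19) to Il6st (-1.09). The gaps between Socs3 and Pim3 (0.11), Lifr and Pim1 (0.10) and Pim1 and Il6st (0.10) were under 1 software SD, so these neighbours are not ordered by the data. Apart from Bcl3, whose gap to Osmr was 3.90, the remaining neighbours were 1.10 to 1.73 SD apart. Probes of the same gene differed by more than these gaps, by 0.95 log2 units for Junb and up to 0.90 for Lifr. The order of these neighbours is therefore not firm either. Bcl3, Junb, Socs3 and Pim3 had larger differences than the receptor chains Lifr and Il6st, but Pim1 was within 1 software SD of both. The third receptor chain, Osmr, lay beyond Junb, Socs3 and Pim3. Receptor chains and targets were therefore not separated by size. The place of Osmr in this order depends on the background step, and that of Junb on the probe, since its other probe gave -3.67.

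The other genes of the pathway differed in both directions, and each count below stands beside 19.8% of all genes lower and 18.0% higher by 2-fold. Shares of genes lower ran from 0% among the other receptors to 45% in the ERK branch, 50% in the NF-κB family, 58.8% among immediate early genes and 100% of the ES cell targets. Some lists share genes, so these are not separate observations. Fos, Jun and Egr1, for example, are immediate early genes that also stand in other lists. Esrrb, Klf4, Tbx3 and Tcl1 each stand among the ES cell targets and among the ES cell markers below. Among the ligands, 3 of 7 measured genes (42.9%) were at least 2-fold lower and 1 was higher. Il11, whose product also signals through gp130, was 29.2-fold lower (3298 and 131), and Il6 at least 4.38-fold lower, with day 0 signal only. Clcf1, a ligand of the ciliary neurotrophic factor receptor, was 2.27-fold higher at low intensity (157 and 413). No probe used here was named Lif, so Lif itself was not analysed. Osm, the ligand of the Osmr receptor, was not well above background on either array.

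Of 11 other cytokine receptor genes, 0 were at least 2-fold lower and 1 was higher, Cntfr. Cntfr encodes the chain that joins LIFR and gp130 into the receptor for ciliary neurotrophic factor. It read 1966 on day 0 and 7238 on day 6, a difference of 1.67 ± 0.20 (3.18-fold higher), the opposite direction to both of its partner chains. Il11ra1, the receptor chain for interleukin 11, read 3208 and 7372, a difference of 0.99. Il6ra was well above background on 1 array only. Il27ra was so on day 0 only (116 and 18.1), with a measured difference of -2.90 but a bound of -0.67, so it was not counted as lower. With no scaling 3 receptor genes were higher, and with median scaling 1 was lower. The median of the receptor list was 0.09 and changed sign with the scaling (-0.03 to 0.30).

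The Janus kinases differed in both directions. Jak1, the main kinase of gp130, read 13523 on day 0 and 14437 on day 6, a difference of -0.12 ± 0.20. Jak2 was 4.93-fold higher (1873 and 10696), and Jak3 was 2.86-fold lower (819 and 332). The other STAT factors were likewise split, with 2 of 6 lower and 2 higher. Stat4 was 11.3-fold lower and Stat6 2.92-fold lower, while Stat5b was 4.63-fold higher (2931 and 15751) and Stat2 2.33-fold higher. Stat5b and Stat3, which share a route of activation by cytokine receptors, therefore differed in opposite directions.

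Among 16 other inhibitors of JAK-STAT signalling, 4 were at least 2-fold lower and 1 was higher. Socs1, a relative of Socs3 that also inhibits Janus kinases, was 4.75-fold lower (6016 and 1468), and Socs2 was 3.38-fold lower (30378 and 10426). Ptpn6, the gene of the phosphatase SHP1, was 4.63-fold lower. Socs4 was 2.21-fold higher. Ptpn11, the gene of the phosphatase SHP2 that docks on gp130 at the same tyrosine as SOCS3, had a difference of 0.09 ± 0.20.

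Genes listed as STAT3-responsive in ES cells, the members apart, were lower in 12 of 12 measured genes, with a median of -4.06 (-3.36 with bounds). The ES cell factor genes Esrrb, Tfcp2l1 and Nr0b1 were 89.7-fold, 82.2-fold and 78.2-fold lower. Most of this list are pluripotency genes, and it was drawn up with their levels on these arrays known. Whether each of them responds to STAT3 in these cells was not tested. Mycn, at -1.34, came to -0.997 with quantile scaling. STAT3-responsive genes known from other cells were lower in 7 of 17 and higher in 1. Icam1, an adhesion receptor gene, was 48.4-fold lower, Timp1, a metalloproteinase inhibitor gene, 27.0-fold lower, and Cebpd 6.06-fold lower. Vegfa was 6.53-fold higher.

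The protein families around Junb and Bcl3 were mixed. Of 14 other AP-1 genes, 5 were at least 2-fold lower and 2 higher. Fosl1 was at least 9.57-fold lower, Fosl2 7.16-fold and Fos 5.51-fold lower, while Jun, the close relative of Junb, was 2.79-fold higher (2130 and 6894). Jund had a difference of -0.20. Among immediate early genes, which respond within minutes to serum and handling, 10 of 17 were lower and 2 higher, with Zfp36 11.8-fold, Ccn2 6.84-fold and Egr1 6.16-fold lower. Whether they share a source with Junb was not tested. In the NF-κB family 7 of 14 genes were lower and 2 higher, and with no scaling 4 were lower. Relb was 7.07-fold lower, Rel at least 4.12-fold and Nfkb2 2.99-fold lower. Nfkb1, whose p50 product Bcl3 binds, had a difference of -0.54.

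In the ERK branch, another output of the LIF receptor, 9 of 20 genes were lower and 0 higher. With quantile scaling 7 were lower. Nras went from -1.29 to 0.21 there, a larger move than that of any member probe. Its brightest probe may differ between these settings, which was not checked, so this need not be an effect of scaling. Hras, at -1.01, came to -0.80 with no scaling. Which receptor these genes answered to was not tested. The ERK-responsive genes Etv5, Spry4 and Etv4 were 62.9-fold, 44.3-fold and 12.0-fold lower. Mapk3, the gene of the kinase ERK1, had a difference of 0.71. In the PI3K and AKT branch 3 of 20 were lower and 3 higher, with Pik3cb 4.87-fold lower and Gsk3b 2.74-fold higher. With no scaling 5 were higher, and the median of -0.19 changed sign with the scaling (-0.30 to 0.03).

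**Figure D5:**
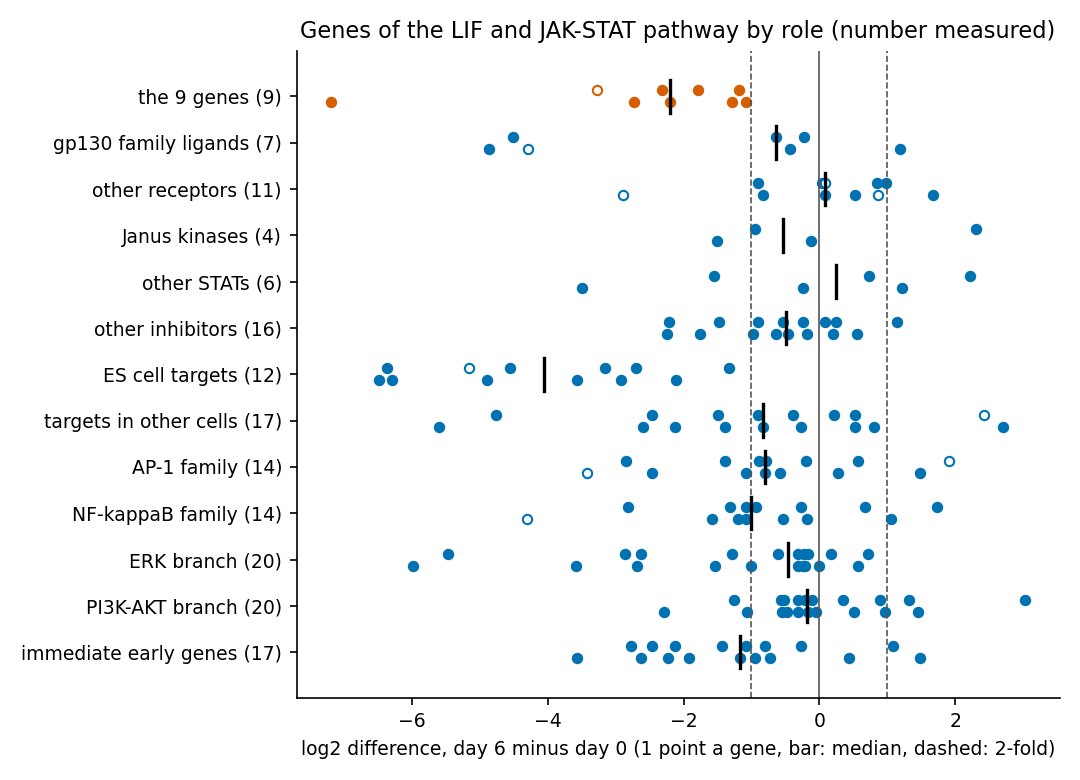
Log2 difference (day 6 minus day 0) of each measured gene of the pathway, by role, with the number measured in parentheses, medians as black bars and open symbols for genes well above background on 1 array only. The 9 genes (orange) and the ES cell targets lie wholly to the left of the 2-fold line at -1, and the other roles spread to both sides of 0.

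The labels were checked against cell type markers, because several of the 9 genes are also active in fibroblasts and blood cells. ES cell markers were lower in 10 of 10 genes, and their summed intensity was 496260 on day 0 and 11977 on day 6. Neural markers were higher in 8 of 10 (52710 and 485763). Fibroblast markers were lower in 9 of 19 and higher in 2 (669058 and 397202), and 18 of 19 were well above background on each day. Transcripts that fibroblasts also make were thus present on both days. Vim, which was under 2-fold apart, made up 176373 and 249056 of these sums. S100a4 was 158-fold, Thy1 29.5-fold and Col1a1 19.9-fold lower, and Lox at least 117-fold lower. The 2 higher genes were Lum (3.22-fold) and Pdgfra (at least 4.32-fold). Blood, macrophage and endothelial markers were lower in 9 of 10 (66811 and 1337). All 10 were well above background on day 0 and 3 on day 6: Cd68, Kdr and Cdh5. Lyz2, the macrophage lysozyme gene, read 60529 and 40.3, and Adgre1, Csf1r, Ptprc and Itgam were also well above background on day 0 only. Osmr, Bcl3, Socs3, Junb, Il6, Icam1 and Timp1 are known to be made by fibroblasts, macrophages or endothelial cells, and this list is not complete. Extraembryonic endoderm and trophoblast markers were lower in 5 of 9 and higher in 1 (10127 and 4232), with 8 well above background on day 0 and 6 on day 6. The trophoblast factor genes Cdx2, Hand1 and Gcm1 were so on day 0 only, and Cdx2 read 3491 there. Astrocyte and oligodendrocyte markers were higher in 6 of 9 and lower in 0 (8052 and 28008), with 4 well above background on day 0 and 9 on day 6. Gfap, a defining astrocyte gene, was not well above background on either day. The part of any of these cell types in the differences was not tested. In bulk RNA, fewer cells of a type and less RNA per cell cannot be told apart.

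Genes next to the members on the chromosome differed in both directions. The nearest measured protein-coding genes on each side, by RefSeq order in GRCm38.p6, were 16 genes besides the members, of which 7 (43.8%) were at least 2-fold lower and 3 (18.8%) higher, with a median of -0.10. Over all genes these shares were 19.8% and 18.0%, and the median was -0.09. Osmr and Lifr neighbour each other. Outside this pair, Rictor next to Osmr had a difference of 0.35, and Egflam next to Lifr was well above background on day 6 only. Bcl3 lay between Cblc (-3.12) and Ceacam19 (well above background on day 0 only), both lower. Stat3 lay between Stat5a (0.73) and Cavin1 (-3.64).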

How the data were processed

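Agilent arrays of design 014868 (build mm7, NCBI35) were scanned in 1 channel and processed by Feature Extraction 9.5.3.1, per the file headers. The deposited intensity of each spot was background-subtracted and detrended by that software. Control and outlier spots (186 on day 0, 216 on day 6) were left out, log2 values of spots of a probe were averaged (Python 3.11.15), and the 75th percentile was subtracted. The 28378 probes well above background on at least 1 array were kept. On the day 0 array 25227 probes (61.5%) were well above background, and on the day 6 array 26882 (65.5%). For other genes, names came from RefSeq (GRCm38.p6) by accession (22944 probes), symbol (6664) or older symbol (3108), and 8458 probes stayed unnamed. A gene took its brightest probe. The authors' deposited log2 value table, whose steps are not given in the labels, was an alternative. Its columns had equal distributions and a median of 8.53, and its differences correlated with those used here at r = 0.995 over 23731 probes, which are not independent. Its log base and direction follow from that comparison. Normexp used limma 3.58.1. With 1 array a group there is no test, and precision is limited by the number of arrays. The difference script was tested on simulated data. Genes and lists were chosen with earlier results of these data known. All 9 genes are named, and of each other list up to 3 genes in each direction with the largest difference, plus partners by role. Kdr, Cdh5, Adgre1 and other markers and the neighbouring genes were named after their values were seen. A few genes of the other lists that this rule names are not reported here. Exon and protein annotation was not used here.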

Additional observations from a re-analysis of the deposited data

How the results depend on the processing

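No paired analysis was possible because each group had 1 array, and for the same reason no array could be left out. Of the 11 alternatives, 7 recompute the probe values, which gave 91 differences for the 13 probes: 0 changed sign, 74 moved by less than the software SD and 17 by more. The filters leave these values as they are by construction. The number of genes at least 2-fold lower stayed between 7 and 9 and that of probes between 8 and 12, with 0 probes higher in every setting that counted probes. The lowest counts came with no scaling, where Il6st and Pim1 came under 2-fold. The median of the 9 genes was -1.99 with no scaling and -1.997 with only genes well above background on both arrays, which leaves out Osmr by construction. Osmr stood at -2.16 with normexp and -2.06 with no background subtraction. No scaling moved the median of all genes from -0.09 to 0.13 and median scaling moved it to -0.20, and members shift with it. Signal over background limits Osmr and the day 6 level of Bcl3.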
